A study of Mus musculus with 18 samples.

Results

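The ubiquitin-specific proteases (USPs) measured in mouse liver are the 45 genes whose symbol is Usp followed by a number, chosen by name alone out of the 14451 genes in the table, and all 45 could be tested. The data were polyA RNA-seq of whole livers from wild-type (WT) male mice of 8 to 9 weeks, kept in a cycle of 12 h of light and 12 h of dark. Livers were taken at zeitgeber time (ZT, hours after lights on) 1, 5, 9, 13, 17 and 21, with 3 livers at each time point and 18 in all. ZT1, ZT5 and ZT9 fell in the light and ZT13, ZT17 and ZT21 in the dark. Each mouse gave 1 liver at 1 time point, and the 3 mice of a group were those with the best RNA out of 5, so no animal was followed over the day and 1 cycle was sampled. No mutant or treated animals were included.

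USPs are cysteine proteases that cut ubiquitin from proteins. By removing ubiquitin chains they can spare a substrate from the proteasome, and by removing single ubiquitins they reset histones, membrane receptors and DNA repair factors. In the liver clock, the levels of the PER, CRY and BMAL1 proteins are set partly by ubiquitin ligases, and USP2 and USP7 are among the proteases known to act on clock proteins.

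Values are normalized reads per 1000000 (here called normalized reads), scaled by the authors, and 1 liver held between 10268168 and 23242842 reads, with a median of 12078875. A difference between replicates includes counting error, and p-values measure the spread between mice. Judged by 15 clock genes, 17 of the 18 livers matched their labelled time best, and ZT5 replicate 3, the deepest library, lay closer to the ZT9 livers than to the other ZT5 livers. The hepatocyte genes Alb, Apoa1, Ttr and Cps1 summed to between 64741 and 94445 in every liver.

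**Figure D1:**
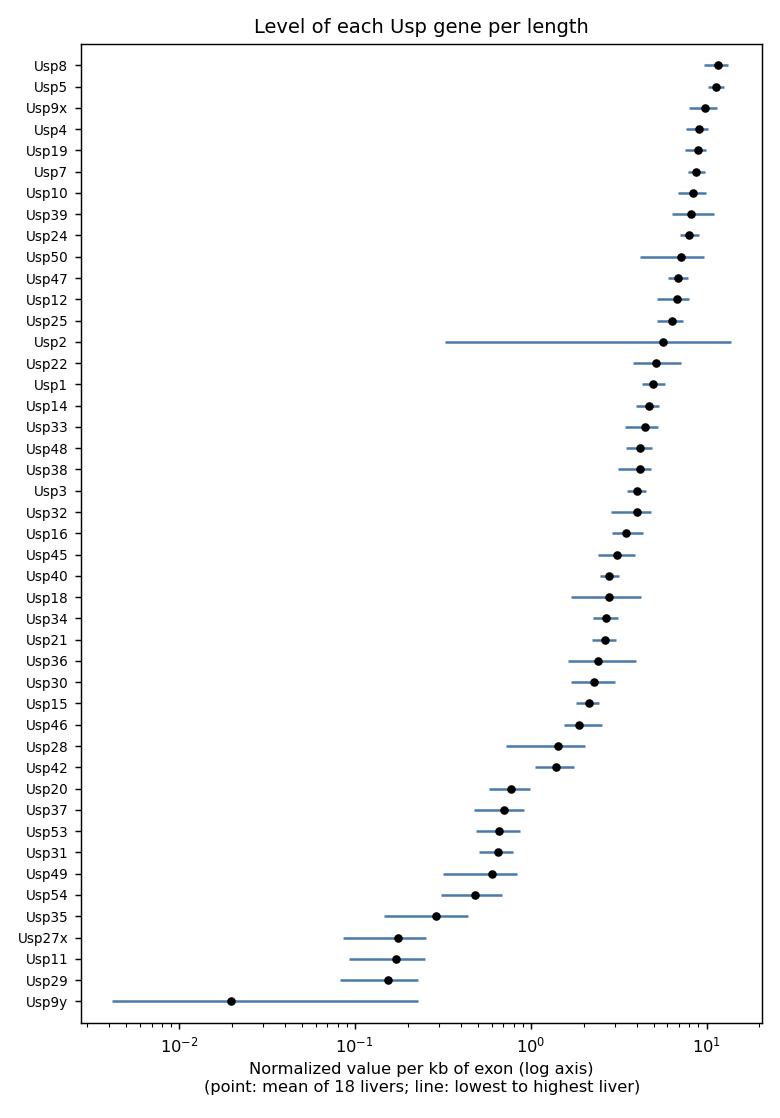
Normalized value per kb of exon for each of the 45 Usp genes, on a log axis, with the mean of 18 livers as a point and the lowest to highest liver as a line. Usp8, Usp5 and Usp9x are at the top and Usp9y at the bottom, and the Usp2 line is longer than those of its neighbours.

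Per kb of exon, a rough scale for comparing genes, Usp8 was highest with a mean of 11.6, followed by Usp5 at 11.3 and Usp9x at 9.85. The length merges the exons of all annotated transcripts, whether used in liver or not, so close ranks are uncertain. USP8 works on endosomes, where it spares receptors from lysosomal breakdown, USP5 takes apart free ubiquitin chains, and USP9X is a large X-linked protease with many substrates. The lowest were Usp9y at 0.0197, Usp29 at 0.155 and Usp11 at 0.171 per kb. The long genes Usp9x, Usp24 and Usp47 had the highest values before the correction for length, with means of 148, 98.8 and 94.6 normalized reads. The lowest such values were 0.160 for Usp9y, 0.757 for Usp27x and 0.809 for Usp11. Usp27x rested on 4 to 17 reads per liver and Usp11 on 5 to 28, and neither of these X-linked genes passed a test.

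Usp9y, the Y-linked copy of Usp9x, was at 0 reads in 15 of 18 livers. It reached 22 reads in ZT21 replicate 2, a value of 1.86, while the other livers were at 0.271 or lower. Usp9x and Usp9y share much of their sequence, and the division of reads between them is uncertain.

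Usp2 was the member with the largest change over the day. In ZT1 livers it stood at 2.46, 2.32 and 1.58 normalized reads. In ZT5 livers it stood at 9.20, 13.9 and 24.9, and in ZT9 livers at 66.8, 62.8 and 60.7. Each ZT9 liver was above every other liver, and each ZT1 liver was below every other liver. In the dark, Usp2 stood at 49.95, 43.0 and 51.3 at ZT13, at 19.7, 22.2 and 25.5 at ZT17, and at 13.0, 9.40 and 11.2 at ZT21. The ZT9 mean of 63.4 ± 3.09 (SD, n = 3) was 29.95 times the ZT1 mean of 2.12 ± 0.473 (SD, n = 3). The lowest ZT1 liver held 16 Usp2 reads and the highest liver of all held 784.1.

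**Figure D2:**
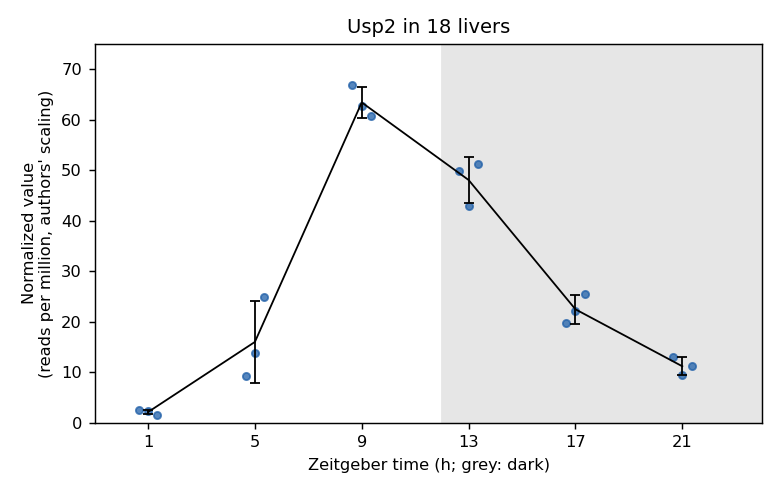
Normalized Usp2 value in each of 18 livers against zeitgeber time, with points for livers, a line for the mean and bars for ±1 SD (n = 3); the dark phase is grey. The 3 ZT9 livers lie between 60.7 and 66.8, and the 3 ZT1 livers at 2.46 or lower.

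A cosine with a 24 h period, fitted with limma to log2(value + 1), gave Usp2 an amplitude of 1.90 ± 0.19 (SE, 18 livers), the log2 distance of the peak from the curve's midline. Its fitted peak was at ZT11.9 ± 0.383 h (SE), with an adjusted p of 3.99e-06. On this curve the peak was 13.9 times the trough. The rank test JTK, which tried periods of 20, 24 and 28 h, gave a q of 0.0131 with 20 h as the best period. MetaCycle's combination of JTK with a Lomb-Scargle periodogram (MC) gave a q of 0.00236. Without ZT5 replicate 3, the library with a Usp2 value of 24.9, the amplitude was 1.93. The rise from ZT1 to ZT9 was steeper than the decline after ZT13, and a term with a 12 h period had an amplitude of 0.68 ± 0.11 on the same log2 scale with an adjusted p of 0.0241. This 12 h call was lost without ZT1 replicate 2 (adjusted p = 0.0681), ZT1 replicate 3 (0.0603) or ZT21 replicate 3 (0.0573).

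The genes whose profile over the 18 livers was most like that of Usp2 among 12479 genes with a mean value of at least 1 were Wee1 (Pearson r = 0.946), Per3 (0.939), Ciart (0.926), Pdxk (0.925) and Tef (0.921). These r are descriptions across livers that share the same 6 time points. Per3, Ciart and Tef belong to the clock and its output, Wee1 encodes a kinase that holds cells before mitosis, and Pdxk makes active vitamin B6. Their fitted peaks lay at ZT11.2 for Wee1, ZT10.8 for Per3, ZT10.6 for Ciart, ZT12.3 for Pdxk and ZT10.7 for Tef. Their 24 h amplitudes were 1.10, 1.84, 1.84, 0.526 and 1.34 on the log2 scale, in that order.

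The Usp2 gene lies at chr9:44067021-44095627 on the + strand of GRCm38, and its 6 protein-coding transcripts start at several sites. The values sum over all transcripts, so that which of these starts carried the rhythm cannot be told apart. The RefSeq promoter table holds 1 start for Usp2, at base 44084920, which lies 17899 bases inside the annotated gene and 19 bases before the start of the transcript Usp2-202. It was searched for 3 motifs on both strands from 250 bases before to 50 bases after the start: the E-box bound by CLOCK and BMAL1 (CACGTG), the D-box bound by DBP, TEF and HLF (TTATGTAA or TTACGTAA, with TTACATAA as the other strand of the former) and the AGGTCA half-site of nuclear receptors, which REV-ERB and ROR share. The motifs can overlap, and a match is a description of the letters only. The 250 bases upstream of this Usp2 start, chr9:44084670-44084919, held none of the 3. Those of Usp16, chr16:87454735-87454984 on the + strand, held an E-box 77 bases before the start, shown in capitals. The sequences are from RefSeq on GRCm38.p6, printed because Usp2 had the largest rhythm and Usp16 was the member with both an E-box and a called 24 h rhythm.
Usp2: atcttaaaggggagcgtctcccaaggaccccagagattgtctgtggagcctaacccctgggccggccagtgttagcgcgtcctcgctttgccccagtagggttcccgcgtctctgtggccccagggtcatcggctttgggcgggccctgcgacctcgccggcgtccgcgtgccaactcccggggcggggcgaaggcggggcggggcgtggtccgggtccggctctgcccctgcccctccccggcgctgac
Usp16: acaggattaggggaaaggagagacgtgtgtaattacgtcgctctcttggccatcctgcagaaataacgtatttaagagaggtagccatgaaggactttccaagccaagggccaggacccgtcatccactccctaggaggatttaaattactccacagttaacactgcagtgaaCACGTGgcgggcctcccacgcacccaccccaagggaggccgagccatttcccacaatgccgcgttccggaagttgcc

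Promoters were found for 35 of the 45 members. The E-box was present in 4 of the 35 (Usp4, Usp16, Usp31 and Usp32), against 7.15% of 32851 promoters of all genes. AGGTCA was present in 2 (Usp10 and Usp20), against 16.3% of all promoters. The D-box was present in 0 of the 35, against 1.06%. Of the 6 members with an E-box or AGGTCA, only Usp16 had a called 24 h rhythm.

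Over the whole family, 15 of 45 members had a 24 h rhythm at an adjusted p under 0.05 by limma, and 35.3% of the 14449 genes tested did. JTK called 5 members (Usp2, Usp22, Usp28, Usp39 and Usp50), against 14% of all genes, and MC called these 5 and Usp3, against 18.2%. The best JTK period was 24 h for Usp39 and Usp50, 20 h for Usp2 and Usp28, and 28 h for Usp22. A test for any difference between the 6 time points called 10 members, against 26.3%. By these 4 tests the share of members called was near that of all genes. It was 33.3% by limma's 24 h test, and 40% against 36.8% of all genes when limma allowed the spread to follow the level (trend). The 12 h term called 2 members, Usp2 and Usp28, against 0.872% of all genes. In 29 of 45 members no test passed, and the share of all genes that passed no test was not computed. Without ZT5 replicate 3, limma's 24 h test called 12 members (32.6% of all genes), JTK 4 (9.35%), MC 6 (15.1%) and the time-point test 9 (23.3%).

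Besides Usp2, the rhythms were shallow. The median 24 h amplitude was 0.112 over the 45 members and 0.162 over all genes tested, and the amplitude second to that of Usp2 was 0.40. The highest time-point mean was less than 1.5 times the lowest in 32 of 45 members and over 2 times the lowest in 4, which were Usp2, Usp9y, Usp18 and Usp28. The summed value of all 45 members was 1461 to 1525 at ZT9, 1318 to 1375 at ZT21 and 1318 to 1494 at the other time points. Of the 15 called members, 11 had their fitted peak in the light, Usp2 among them just before dusk, and 4 in the dark (Usp38, Usp39, Usp46 and Usp50). Of all called genes, 51.6% peaked in the light.

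**Figure D3:**
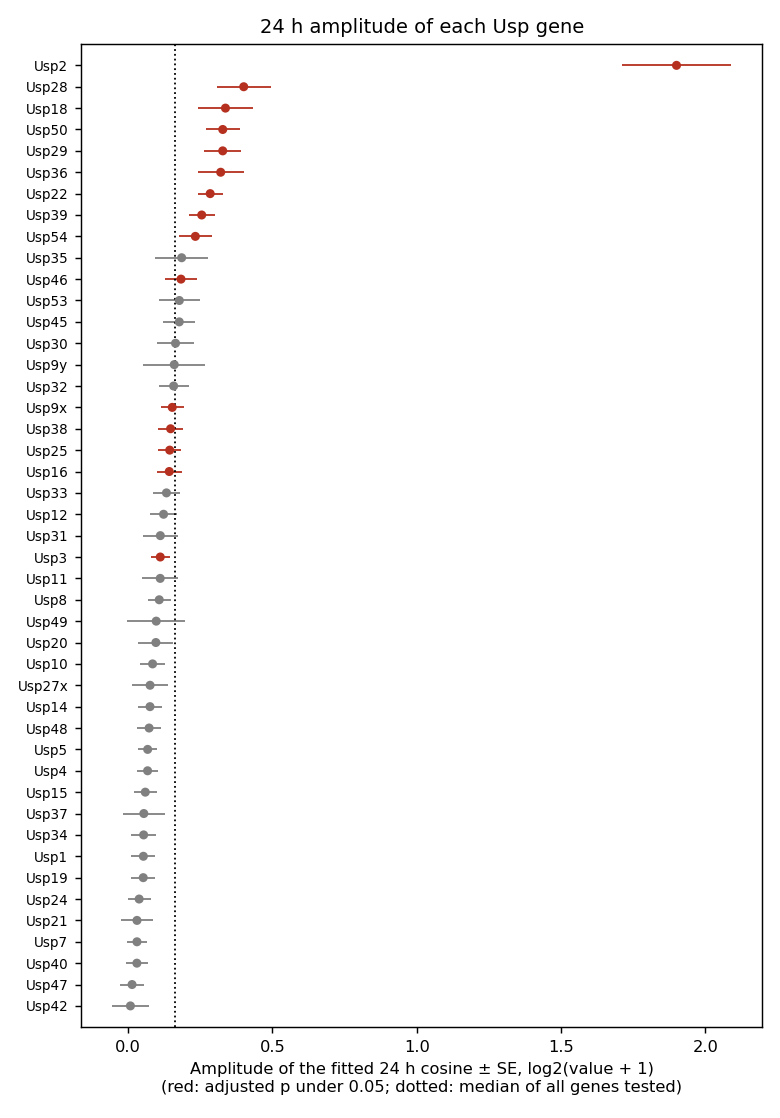
Amplitude of the fitted 24 h cosine ± SE on log2(value + 1) for the 45 Usp genes, with members at an adjusted p under 0.05 in red and the median of all genes tested (0.162) as a dotted line. Usp2 stands at 1.90, and every other member at 0.40 or lower.

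**Figure D4:**
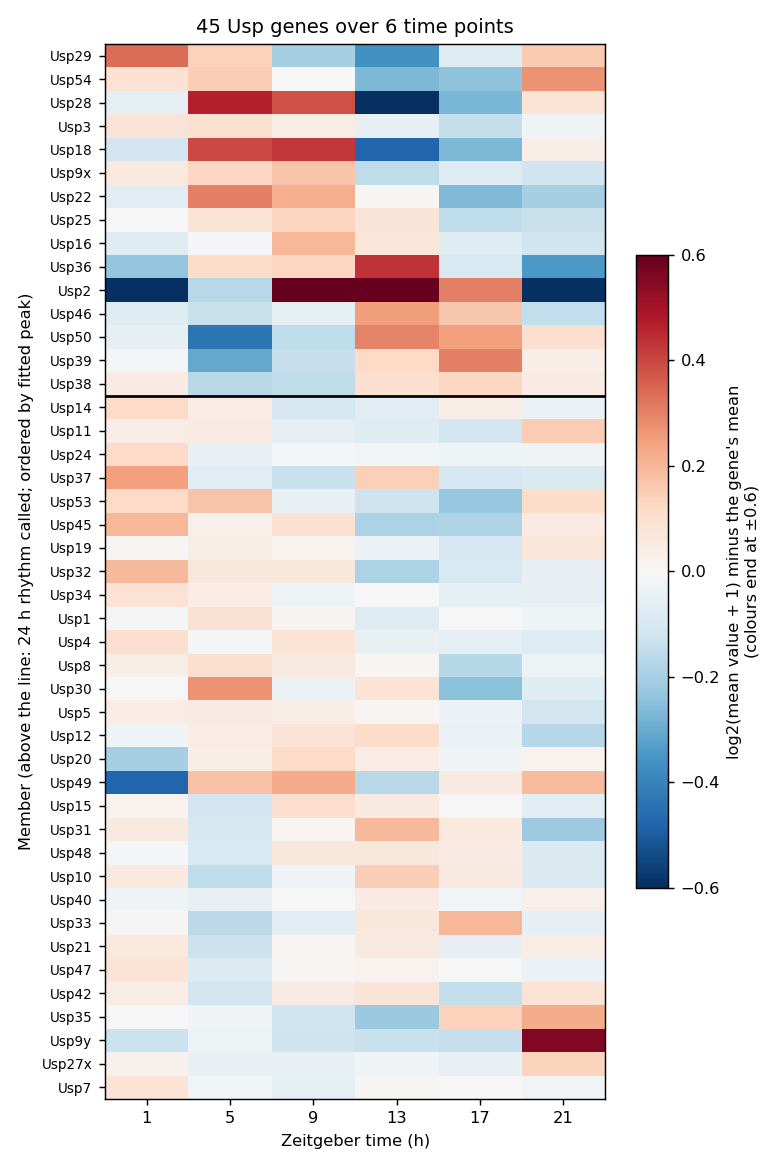
Time-point means of the 45 Usp genes as log2(mean + 1) minus the gene's own mean, with the 15 members called by limma's 24 h test above the line and both parts ordered by fitted peak. Colours end at ±0.6, which Usp2 exceeds at ZT9, ZT13, ZT1 and ZT21, and most genes under the line are pale at every time point.

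Of the clock-linked members other than Usp2, Usp9x had a shallow rhythm and none was called for Usp7, a protease that acts on the p53 regulator MDM2 and on cryptochromes. The 9 light-phase livers had Usp9x values of 147.6 to 173.3 and the 9 dark-phase livers 119.7 to 149.7, with a small overlap. The amplitude was 0.153 ± 0.040 (SE) with a peak at ZT5.6 and an adjusted p of 0.0184. Its call by the time-point test (adjusted p = 0.0431) was lost in 14 of 18 fits that each left out 1 liver, and JTK gave a q of 0.130. Usp7 values spanned 61.2 to 75.9 over all livers, and its amplitude was 0.031 ± 0.035 with an adjusted p of 0.758. Gmps, the GMP synthase that binds USP7, was called with an amplitude of 0.211 ± 0.050 and a peak at ZT14.5.

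Among the histone and chromatin members, 4 of 8 passed limma's 24 h test (Usp3, Usp16, Usp22 and Usp36), against 35.3% of all genes tested. JTK called 1 of the 8, Usp22, against 14% of all genes. USP22 removes ubiquitin from histone H2B as part of the SAGA coactivator. Usp22 stood at 27.6, 30.2 and 34.9 in ZT5 livers and at 30.6, 28 and 28.6 in ZT9 livers. Every one of these was above every liver of the other 4 time points, which spanned 18.6 to 25.8. The ZT5 mean of 30.9 ± 3.72 (SD, n = 3) was 1.504 times the ZT17 mean of 20.6 ± 2.88. The 24 h amplitude was 0.285 ± 0.044 (SE) with a peak at ZT7.0 and an adjusted p of 0.000305, and JTK gave a q of 0.0152. Of its 3 SAGA partners, Atxn7 was called with an amplitude of 0.186 ± 0.058 and a peak at ZT11.7, and Atxn7l3 and Eny2 were not.

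Usp36, a nucleolar protease, was most variable between mice among the called members of this group. It stood at 30.5, 25.6 and 19.2 at ZT13 and at 15.2, 12.6 and 14.9 at ZT21. These groups did not overlap, but ZT13 overlapped with ZT5 (15.3 to 23.6), ZT9 (15.2 to 23.7) and ZT17 (15.4 to 19.3). Its amplitude was 0.321 ± 0.080 with an adjusted p of 0.0134, while the time-point test gave an adjusted p of 0.0514. Usp3 and Usp16, which act on ubiquitinated histone H2A, had amplitudes of 0.112 and 0.143 with adjusted p of 0.0341 and 0.0456. Both calls were lost when single livers were left out, that of Usp16 in 11 of 18 such fits and that of Usp3 in 7 of 18. Without ZT5 replicate 3 the adjusted p was 0.0617 for Usp16 and 0.0600 for Usp3. Usp49, another H2B protease, was called by the time-point test (adjusted p = 0.0200) and not by the 24 h test. It stood at 2.73, 3.79 and 3.67 at ZT1, and at 6.51, 5.92 and 5.97 at ZT9. Its mean was lowest at ZT1, at 3.40 ± 0.578 (SD, n = 3), and next lowest at ZT13, at 4.44 ± 0.837. Its 12 h term of 0.327 ± 0.068 had an adjusted p of 0.0643.

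Usp28, known for stabilising MYC and for its part in the DNA damage response, had the second largest amplitude. It stood at 10.7, 11.9 and 11.9 in ZT5 livers and at 10.3, 10.3 and 11.7 in ZT9 livers, all above every liver of the other time points. It stood at 5.04, 4.21 and 5.60 in ZT13 livers. The ZT5 mean of 11.5 ± 0.721 (SD, n = 3) was 2.32 times the ZT13 mean of 4.95 ± 0.701, which rested on 61 or more reads per liver. The decline from ZT9 to ZT13 took a single interval of 4 h, and the values climbed over the dark phase to 7.63, 8.99 and 9.07 at ZT21. The 24 h amplitude was 0.401 ± 0.093 (SE), with a peak at ZT4.3 and an adjusted p of 0.00859. The 12 h term was nearly as large, at 0.337 ± 0.053 with an adjusted p of 0.0167, and 0.0670 without ZT1 replicate 2. JTK gave a q of 0.0282, a call that was lost without any 1 of the ZT5 or ZT13 livers or without ZT17 replicate 1, with a q of 0.0560 to 0.0863.

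The other called member of the 9 DNA repair and UAF1-bound proteases was Usp46. It stood at 17.7, 19.96 and 15.2 at ZT13 and at 12.2, 13.96 and 13.2 at ZT21, and its amplitude was 0.184 ± 0.054 with an adjusted p of 0.0356. This call was lost in 8 of 18 fits that each left out 1 liver, with an adjusted p of 0.0515 to 0.0902 (0.0577 without ZT5 replicate 3), and when the libraries were set to the same total. USP46, USP12 and USP1 are activated by UAF1, the product of Wdr48. Wdr48 was called by limma with an amplitude of 0.187 ± 0.039 and a peak at ZT2.4, and by JTK with a q of 0.0354. Usp1 and Usp12 were not called. Usp24 and Usp47, which belong to this group and rest on 944 reads or more in every liver, had amplitudes of 0.039 ± 0.040 and 0.014 ± 0.040.

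**Figure D5:**
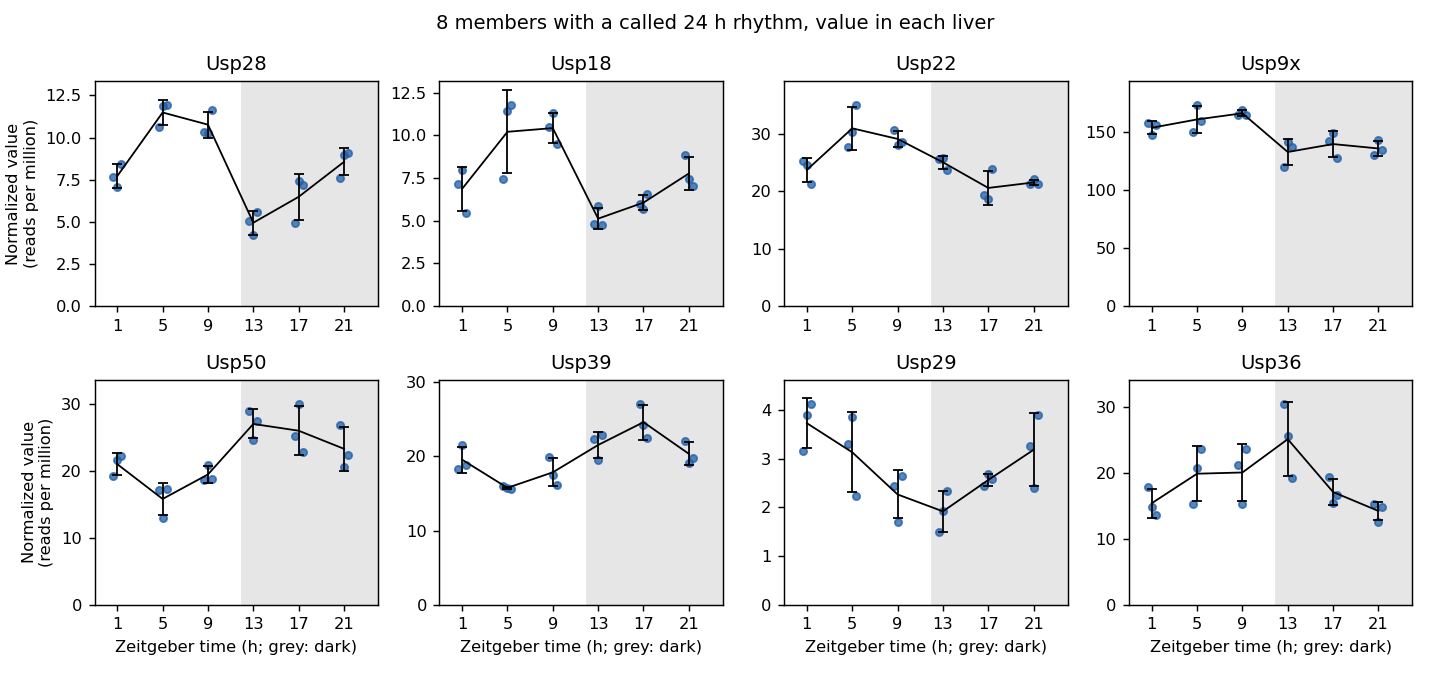
Normalized value in each liver for 8 members called by limma's 24 h test, with points for livers, a line for the mean and bars for ±1 SD (n = 3); the dark phase is grey and each panel has its own scale from 0. Usp28, Usp18 and Usp22 are high at ZT5 and ZT9, Usp50 and Usp39 are low at ZT5, and Usp36 is highest at ZT13.

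Usp18 encodes the protease that removes the ubiquitin-like modifier ISG15 and dampens interferon signalling. It stood at 7.42, 11.4 and 11.8 in ZT5 livers, at 10.5, 11.3 and 9.49 in ZT9 livers and at 4.80, 5.83 and 4.73 in ZT13 livers. All ZT5 and ZT9 livers were above all ZT13 and ZT17 livers, and the ZT5 group overlapped with ZT1 and ZT21. The ZT9 mean of 10.4 ± 0.892 (SD, n = 3) was 2.03 times the ZT13 mean of 5.12 ± 0.617. The time-point test gave an adjusted p of 0.00223 and the 24 h test 0.0261, with an amplitude of 0.338 ± 0.094 and a peak at ZT5.1. The 24 h call was lost without ZT5 replicate 3 (adjusted p = 0.0673) and without ZT5 replicate 2 (0.0660), and JTK gave a q of 0.105. The 12 h term was 0.313 ± 0.062 with an adjusted p of 0.0523.

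Of the other 4 genes of the ISG15 system, Herc6, its ligase in mice, was called by limma (amplitude 0.365 ± 0.062, peak at ZT4.7) and by JTK (q of 0.0354). Herc6 stood at 17.6, 19.7 and 15.1 at ZT9 and at 8.57, 11.4 and 11.8 at ZT13, groups that did not overlap. Uba7, the activating enzyme for ISG15, passed the test of the 12 h term with an adjusted p of 0.0314. It was lowest at ZT17 with 8.20, 10.2 and 9.33, and stood at 14.9, 15.04 and 14.3 at ZT21. Isg15 itself had an amplitude of 0.109 ± 0.070 and Ube2l6, its conjugating enzyme, 0.077 ± 0.037, and neither passed.

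The 6 Kupffer cell markers, called or not, had fitted peaks at ZT7.8 to ZT9.4. Those of the 5 sinusoidal endothelial markers lay at ZT6.9 to ZT9.7. Among called members, Usp22 (ZT7.0), Usp25 (ZT7.9) and Usp16 (ZT9.7) peaked within or near these ranges, and Usp18 peaked earlier (ZT5.1). Of all genes tested, 35.3% were called by limma's 24 h test. Of the 6 Kupffer cell markers, 3 were called by limma (Cd5l, Marco and Timd4, with peaks at ZT8.2, ZT8.5 and ZT8.1). Their summed value was 101 to 209 at ZT1, 174 to 236 at ZT5, 181 to 223 at ZT9, 165 to 218 at ZT13, 87.7 to 205 at ZT17 and 88.8 to 138 at ZT21, so that only ZT21 lay apart from ZT9. Of the 5 endothelial markers, 2 were called (Stab2 at ZT7.9 and Kdr at ZT6.9), with a sum of 152 to 190 at ZT5, 134 to 171 at ZT9, 81.8 to 128 at ZT21 and 78.5 to 158 at the other time points. None of these 11 markers was at 0 as a time-point mean. Of the 4 cholangiocyte markers, 3 were called (Sox9 at ZT20.9, Krt19 at ZT19.1 and Epcam at ZT12.6), and their sum was 5.58 to 7.87 at ZT5 and ZT9 and 8.71 to 15.1 at the other time points. Of these markers only Krt19 had its lowest mean at ZT5, while Sox9 and Krt7 were lowest at ZT9 and Epcam at ZT1. Usp38, Usp39 and Usp50 had their lowest mean at ZT5 and their fitted peak in the dark. Of the 4 hepatocyte genes, Ttr was called, with a peak at ZT21.7. The part of these cells in the Usp values was not tested, and in whole liver fewer cells of a type and less RNA per cell cannot be told apart.

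Usp39, Usp53 and Usp54 were listed as members without the usual protease activity, which was not checked here. Of these 3, limma's 24 h test called Usp39 and Usp54, against 35.3% of all genes tested. USP39 is a component of the spliceosome. Usp39 stood at 15.9, 15.7 and 15.6 in ZT5 livers, below every other liver, and at 27.1, 24.3 and 22.4 in ZT17 livers. The ZT17 mean of 24.6 ± 2.33 (SD, n = 3) was 1.56 times the ZT5 mean of 15.7 ± 0.170. Its amplitude was 0.255 ± 0.045 with a peak at ZT17.2 and an adjusted p of 0.000973, and it had the lowest JTK q of all members, 0.0109. Usp54 stood at 4.93, 5.10 and 6.21 at ZT21 and at 3.09, 3.73 and 3.43 at ZT13, groups that did not overlap, with an amplitude of 0.233 ± 0.057, a peak at ZT1.6 and an adjusted p of 0.0126.

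Usp50 followed a course much like that of Usp39. It stood at 17.1, 13.0 and 17.3 in ZT5 livers, below every other liver, and at 29.0, 24.7 and 27.4 in ZT13 livers. The ZT13 mean of 27.0 ± 2.16 (SD, n = 3) was 1.71 times the ZT5 mean of 15.8 ± 2.42. Its amplitude was 0.328 ± 0.059 with a peak at ZT16.6 and an adjusted p of 0.00123, and JTK gave a q of 0.0188, a call that was lost without any 1 of the ZT5 livers or without ZT17 replicate 2, with a q of 0.0518 to 0.0571. Usp50, at chr2:126709096-126783470 on the - strand, overlaps with Usp8 at chr2:126707328-126759297 on the + strand. Whether reads were assigned by strand is not given in the sources used here, and without strand the reads of the overlapping parts cannot be told apart. Usp8 was not called, with an amplitude of 0.108 ± 0.039 and a fitted peak at ZT5.5.

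Usp29, an imprinted gene, peaked near dawn. It stood at 3.15, 3.90 and 4.13 in ZT1 livers and at 1.49, 1.93 and 2.33 in ZT13 livers, groups that did not overlap, on 17.69 to 56.81 estimated reads per liver. Its amplitude was 0.328 ± 0.065 with a peak at ZT0.46 and an adjusted p of 0.00258, and JTK gave a q of 0.0852. Its call by the time-point test was lost in 10 of 18 fits that each left out 1 liver. Usp38 had an amplitude of 0.147 ± 0.043 with a peak at ZT18.2 and an adjusted p of 0.0336. This call was lost without ZT5 replicate 1, ZT9 replicate 2 or ZT17 replicate 1, with an adjusted p of 0.0593 to 0.0823, and when the libraries were set to the same total.

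Among the 12 members that act on endosomes, the endoplasmic reticulum, mitochondria or receptor signalling, 1 was called, against 35.3% of all genes tested. This was Usp25, a close relative of Usp28, with an amplitude of 0.144 ± 0.040, a peak at ZT7.9 and an adjusted p of 0.0245, which was 0.0540 without ZT9 replicate 2 and 0.0608 without ZT21 replicate 1. It stood at 34.6, 38.1 and 35.4 at ZT9 and at 31.2, 28.6 and 28.7 at ZT17, groups that did not overlap. Usp8 acts with the endosomal proteins STAM, STAM2 and PTPN23, and all 3 of their genes were called, with amplitudes of 0.205, 0.189 and 0.177 and peaks at ZT0.74, ZT4.3 and ZT2.7. Of all 9 partner genes 6 were called by limma and 1 by JTK, against 35.3% and 14% of all genes tested. Hgs, another of the 9, was not called, with an amplitude of 0.007 ± 0.052 (SE).

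Neither of the members that handle free ubiquitin and the proteasome was called. USP14 sits on the proteasome and trims chains from its substrates. Usp14 spanned 33.1 to 44.7 over all livers, with an amplitude of 0.076 ± 0.042 and an adjusted p of 0.321 by limma. Usp5 had an amplitude of 0.068 ± 0.032.

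Of the deubiquitinases of other families, 12 of 32 were called by limma's 24 h test and 1 by JTK. Of the 45 Usp genes, limma's 24 h test called 15 and JTK 5. Of all genes tested, limma called 35.3% and JTK 14%. Of the 12 called, the 5 with the largest amplitudes were Josd2 (0.412, peak at ZT20.9), Alg13 (0.261, ZT3.6), Mysm1 (0.249, ZT1.9), Otub2 (0.243, ZT18.3) and Zranb1 (0.218, ZT7.4). Josd2, a protease of the Machado-Joseph class, was the one called by JTK, with a q of 0.0188. It stood at 43.4, 46.9 and 47.8 at ZT21 and at 24.3, 20.5 and 29.6 at ZT9, groups that did not overlap. The median amplitude of the 32 genes was 0.134, beside 0.112 for the Usp genes.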

How the data were processed

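The 18 livers were sequenced as polyA RNA on an Illumina HiSeq2500 after NEBNext Ultra library preparation. Per the labels, the authors processed the reads with CASAVA 1.8.2, cutadapt and RSEM 1.2.20 on GRCm38. The deposited values are a signal per gene: the RSEM estimated count plus 0.5, per 1000000 reads of a library size that the authors scaled for each liver, so that whole counts were not recovered and no count test was run. Within a liver the lowest value is 0 reads, which gave the depth and the reads per gene. Of 14451 genes, 2 at 0 reads in every liver were left out.

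Values were analysed as log2(value + 1), a scale that understates changes of genes with few reads. limma 3.58.1 (R 4.3.3) fitted a 24 h cosine and sine, the 6 time points, and 24 h with 12 h terms, over all 18 livers. JTK (periods 20, 24 and 28 h) and MC were written again in Python 3.11.15 with SciPy 1.17.1 from their descriptions, and CircaN was not used here. In the paper, JTK called more genes in these livers than the JTK written here. limma's tests were F tests. All p-values were adjusted by Benjamini-Hochberg over all genes tested, with a threshold of 0.05. limma's 24 h test, JTK and MC were tried on simulated data, and the time-point test and the 12 h term were not. Groups are the labelled zeitgeber times, and replicate numbers only name livers. Positions and overlaps came from GENCODE vM21. Levels per kb divide by the merged exon length of a gene.

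The members and the gene lists were chosen with earlier results of these data known. Named with values were Usp2, Usp7, Usp9x, Usp14, Usp18 and Usp22, members called by limma's 24 h or 12 h test or by JTK, the 3 highest and 3 lowest members, the 5 genes most like Usp2, and called genes of each list (at most 5). Usp5, Usp8, Usp49, Hgs, Krt7 and the uncalled genes of the ISG15 and SAGA lists were named after their values were seen. A list of ubiquitin genes is not reported here. Alternatives were another pseudocount, filter, scaling, threshold, limma setting, JTK period or null, MC combination, and leaving out each liver.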

Additional observations from a re-analysis of the deposited data

How the results depend on the processing

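Under other pseudocounts, filters, scalings and limma settings, the number of members called stayed within 1.5 times the reported one, with these exceptions. At a threshold of 0.01, limma's 24 h test called 6 members (19.8% of all genes), the time-point test 6 (13.3%), the 12 h term 0 (0.152%) and JTK 0 (2.06%). At an unadjusted p under 0.05 JTK called 14 members (27.7% of all genes), limma's 12 h term 7 (12.6%) and MC 13 (28.01%). JTK called 10 members when equal cosines were counted as 1 group (22.4% of all genes), adding Usp3, Usp18, Usp29, Usp38 and Usp54, and MC called 11 when the libraries were set to the same total (19% of all genes), adding Usp5, Usp8, Usp9x, Usp18 and Usp54. The main JTK null took each time point as a group of its own, although a 24 h cosine is equal at some of them. Why the MC count rose was not tested. The share of members called by limma's 24 h test was 40% with trend, with array weights and at the same total, against 36.8%, 36.3% and 36.5% of all genes. At the same total the time-point test called 28.9% of members and 26.7% of all genes, and MC 24.4% of members.

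Leaving out 1 liver at a time gave 12 to 17 members by limma's 24 h test, 8 to 10 by the time-point test, 3 to 6 by JTK, 5 to 8 by MC and 0 to 3 by the 12 h term. The share of all genes called by limma's 24 h test, the time-point test, JTK and MC also fell without ZT5 replicate 3, as given above. Shares of all genes without each other liver are not given here, so these counts do not describe the members alone. JTK called 3 members without ZT5 replicate 2. The 12 h term called 0 without ZT1 replicate 2 (limma), 1 without ZT1 replicate 3 and 1 without ZT21 replicate 3, where Usp2 was lost. For the 22 members named by rule, 490 of 525 refits of the 24 h amplitude kept the side of the threshold and 35 lost a call, and no fitted peak of a called member moved by over 6 h. Usp2, Usp9x, Usp22, Usp28, Usp29, Usp36, Usp39, Usp50 and Usp54 kept their call in every refit. Losses were in Usp3, Usp16, Usp18, Usp25, Usp38 and Usp46. No paired analysis was possible because the labels give no replicate numbers shared between time points. Usp9y, Usp11 and Usp27x rest on 28 reads per liver or fewer.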
